A study of Mus musculus with 4 samples.

Results

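Thymine DNA glycosylase (Tdg), 2 of its processed copies (Tdg-ps and Gm9855), the TET dioxygenases Tet1, Tet2 and Tet3, and the base excision repair genes Mbd4, Apex1, Parp1 and Xrcc1 were followed in mouse embryonic stem cells, wild type or null for the B-type lamins. These 10 genes were taken by symbol from 37991 rows of a gene count table, and all 10 passed the filter on low counts. They were selected on the measured difference between the genotypes, since Tdg-ps and Gm9855 were among the genes that differed most, and on their known roles. The values of the 10 genes in the 2 genotypes are therefore a description and carry no test.

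TET enzymes oxidise the methyl group of 5-methylcytosine in DNA. TDG recognises the most oxidised forms, formylcytosine and carboxylcytosine, as well as thymine paired with guanine, and cuts the base from the sugar. The site left without a base is then cut, filled and sealed by base excision repair, which returns an unmethylated cytosine. Embryonic stem cells are known for active TET oxidation, chiefly by TET1 and TET2. A processed copy arises when an mRNA is reverse transcribed and inserted elsewhere in the genome, so it lacks introns and can closely resemble the mature transcript of its parent gene.

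RNA was sequenced from 2 wild-type (wt) and 2 dKO libraries, where dKO denotes cells null for both B-type lamins, Lmnb1 and Lmnb2, which encode filament proteins lining the inner nuclear membrane. All 4 libraries carry the strain label ZHBTc4, the name of an embryonic stem cell line known for a tetracycline-repressible Pou5f1 transgene in place of the endogenous gene. Per the series' design text the 2 libraries of a genotype are biological replicates, but the labels do not say whether a genotype was 1 clone, so lamin loss and a difference between lines cannot be told apart. Reported p-values measure only the spread between these libraries.

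Total counts ranged from 12899964 to 16697970 per library. Values are CPM, counts scaled to library size, adjusted by TMM, a normalisation of library composition. Lmnb1 had 547 to 667 CPM in wt and 4.24 to 6.02 in dKO libraries, and Lmnb2 had 105 to 117 and 2.52 to 3.28, which matched the labels. The summed level of 9 embryonic stem cell markers was 5168 and 5222 CPM in the wt libraries, against 5955 and 6348 in the dKO libraries. All 9 were measured, and the lowest value of Pou5f1, Sox2 or Nanog in a library was 416 CPM. The 7 fibroblast markers summed to 6.25 and 8.68 CPM in the wt libraries, against 4.79 and 5.49 in the dKO libraries, with Lum at no more than 3 counts over all 4. The 6 primitive endoderm markers summed to 24.3 and 23.5 CPM in the wt libraries, against 27.1 and 24.7 in the dKO libraries. The 5 blood markers summed to 129 and 137 CPM in the wt libraries, against 153 and 225 in the dKO libraries, most of it from Laptm5. The defining leukocyte gene Ptprc had no more than 3 counts, while Cd68 had 16.2 to 22.1 CPM, Spi1 1.17 to 4.59 and Csf1r 0.16 to 1.31. The genotypes did not overlap in any of these 4 sums, beside 33.6% of single tested genes for which they did not overlap. That share is for single genes, so it cannot be compared directly with sums over several genes. The gap was narrow for primitive endoderm markers (24.3 CPM in wt, 24.7 in dKO) and fibroblast markers (6.25 in wt, 5.49 in dKO). The part of these sums in the levels below was not tested. Most of the stem cell difference came from Zfp42, with means of 640 CPM in wt and 1442 in dKO cells. Klf4, Esrrb and Klf2 also had both dKO libraries above both wt libraries, with log2 fold changes of 0.57, 0.32 and 0.26. Sox2 had 0.06, and Pou5f1, Nanog, Dppa5a and Tdgf1 had log2 fold changes from -0.14 to -0.01. In bulk RNA, fewer cells of a type and less RNA per cell cannot be told apart.

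The copies of Tdg were compared first at the level of sequence, because their counts depend on how far reads can separate them. In GENCODE M21 (GRCm38), the Tdg transcript used here has 10 exons and 2959 bases, of which 1194 encode a protein of 397 amino acids. Gm9855 is 1194 bases long and matches the coding sequence alone, with 9 differences and no gap (99.25% identity). Tdg-ps is 2968 bases long and matches the coding sequence with 14 differences (98.83%) together with most of the untranslated sequence. Neither copy has a stop codon before that of Tdg, and 4 codons of Gm9855 and 6 of Tdg-ps encode another amino acid. Of these differences, 5 are the same base in both copies: A98C, A855G, T993C, T1056C and A1090G, with positions counted from 1 at the first base of the Tdg start codon and the Tdg base given first.

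The 120 coding bases with the most differences are printed to show what a read must cover to be assigned to 1 of the 3 genes. They run from coding base 874 to 993 and hold 6 positions at which a copy differs. In Tdg they cross 1 exon junction (chr10:82647342-82648020, plus strand, GRCm38), while Tdg-ps (chr15:82517357-82517476, plus strand) and Gm9855 (chr10:42054314-42054433, minus strand) hold them without an intron. Capitals mark the positions at which either copy differs in the line for Tdg, and the bases that differ from Tdg in the lines for the copies.

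Tdg: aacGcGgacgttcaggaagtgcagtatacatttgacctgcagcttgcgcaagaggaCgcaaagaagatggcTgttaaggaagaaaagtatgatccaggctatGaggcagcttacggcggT
Tdg-ps: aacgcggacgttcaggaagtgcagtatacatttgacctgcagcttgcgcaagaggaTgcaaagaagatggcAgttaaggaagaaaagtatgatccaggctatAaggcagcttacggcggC
Gm9855: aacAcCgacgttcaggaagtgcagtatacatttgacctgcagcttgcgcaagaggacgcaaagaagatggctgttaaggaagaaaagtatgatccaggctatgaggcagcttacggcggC

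Elsewhere the 3 sequences cannot be told apart over long stretches. The longest stretch without a difference runs for 364 bases, from coding base 491 to 854. Its first 120 bases, which in Tdg cross 1 exon junction (chr10:82644221-82644485, plus strand, GRCm38), are the same in Tdg, Tdg-ps and Gm9855. They are shown as a region where a read of this length matches 4 annotated genes equally, since a further copy, Gm5597, which has no row in the count table, holds them too.

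Tdg, Tdg-ps and Gm9855: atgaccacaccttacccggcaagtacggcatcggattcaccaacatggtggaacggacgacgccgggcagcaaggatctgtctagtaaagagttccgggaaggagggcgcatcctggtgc

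**Figure D1:**
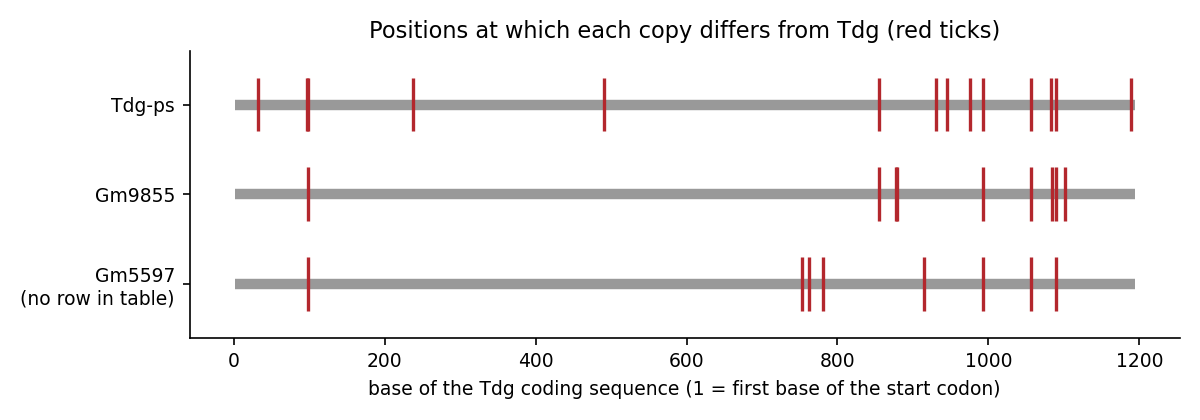
Map of the Tdg coding sequence (horizontal axis, base 1 to 1194) with red ticks at the positions where Tdg-ps (14 ticks), Gm9855 (9) and Gm5597 (8, a copy with no row in the count table) differ from Tdg. Grey bars show the stretch each copy covers. From base 491 to 854 neither Tdg-ps nor Gm9855 has a tick.

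Windows of fixed length gave the same picture in numbers. Of the 1145 windows of 50 bases in the Tdg coding sequence, 234 (20.4%) occur in neither Tdg-ps nor Gm9855, and of the 1095 windows of 100 bases 424 (38.7%) do. With the copies Gm5597 and Gm5197 also counted, these shares were 16.1% and 35.2%. Over the whole Tdg transcript, with its untranslated sequence, more windows occur in neither Tdg-ps nor Gm9855. The shares were 38.7% at 50 bases and 58.7% at 100 bases. Of the windows of Gm9855, 76.5% at 50 bases and 61.3% at 100 bases are also in the Tdg transcript. For Tdg-ps these shares are 54.2% and 33.7%. The sources used here give neither the read length nor how reads with several equal matches were treated. Gm5597 (99.33% identity, 8 coding differences, 1 early stop codon) has an annotated sequence only. The fragment AC122846.1 (203 aligned bases, 99.0%) and the diverged Gm5197 (78.9%) have no row either. Counts of Tdg, Tdg-ps and Gm9855 are uncertain for this reason.

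Counts of the copies were present in wt and near 0 in dKO libraries. Tdg-ps (ENSMUSG00000047347, chromosome 15, 82346705 to 82349711 in the positions of the table, whose build is not given) had 214 counts in wt replicate 1 and 177 in wt replicate 2, and 1 and 0 counts in dKO replicates 1 and 2. Gm9855 (ENSMUSG00000085666, chromosome 10, 41773919 to 41775160) had 199 and 193 in wt replicates 1 and 2, and none in either dKO library. In CPM these were 16.7 and 11.6 in wt for Tdg-ps, and 15.6 and 12.7 for Gm9855. The genotypes did not overlap for either copy, and the wt libraries gave both copies nearly the same count although Tdg-ps is the longer. Of the 14027 genes tested, 0.0855% passed edgeR's test at an adjusted p of 0.05 (0.0499% with a lower level in dKO cells). The copies were chosen for this difference, so no test is read for them.

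Tdg itself (ENSMUSG00000034674, chromosome 10, 82092573 to 82113544) had 756 and 730 counts in wt replicates 1 and 2, against 1685 and 1274 in the dKO libraries. In CPM it had 59.1 and 48.0 in the wt libraries, against 103 and 76.0 in the dKO libraries, with means of 53.5 ± 7.86 and 89.7 ± 19.4 (SD, n = 2 each). Both dKO libraries were above both wt libraries. The log2 fold change was 0.75 (SE 0.20), which corresponds to 1.68-fold, and no test is read for Tdg, as for the other members. The parent gene was thus higher in the genotype whose copies had almost no counts.

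The counts of Tdg and its 2 copies were then added, which gives a level that does not depend on how reads were divided among these 3 rows, although reads dropped for matching several places would still be missing from it. The sum was 91.4 and 72.3 CPM in wt and 104 and 76.0 CPM in dKO libraries. The genotypes overlapped, with dKO replicate 2 between the wt libraries. The means were 81.9 ± 13.5 and 89.8 ± 19.5 CPM (SD, n = 2 each), and fitted as 1 row the sum had a log2 fold change of 0.13 (SE 0.20), or 1.10-fold. This difference was smaller than the spread between replicates of a genotype. By replicate number, the dKO library was the higher in both (104 against 91.4 and 76.0 against 72.3 CPM). The labels do not state such a pairing. With 1 library left out, the log2 fold change of the sum was -0.11 (dKO replicate 1 left out) and -0.03 (wt replicate 2 left out), and it was 0.30 (wt replicate 1 left out) and 0.34 (dKO replicate 2 left out).

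The wt and dKO libraries differed in how this sum was divided. Tdg held 64.7% (95% Wilson interval 61.9 to 67.4) of the summed counts in wt replicate 1 and 66.4% (63.5 to 69.1) in wt replicate 2. In dKO replicate 1 it held 99.9% (99.7 to 99.99), and in dKO replicate 2 it held all 1274 counts (lower limit 99.7%). Tdg-ps held 18.3% and 16.1% in the wt libraries, and Gm9855 17.0% and 17.5%. The copies together had a mean of 28.3 CPM in wt cells, beside a difference of 36.2 CPM between the dKO and wt means of Tdg. These intervals cover counting error only. With 3 counts in both dKO libraries together as the floor, Gm9855, which had none, was at least 154-fold lower in dKO cells. The single count of Tdg-ps gave a wt to dKO ratio of 461 (95% interval from counting error 82.3 to 18300). Whether the copies are in the genome of the dKO cells, whether they are transcribed, and whether their wt counts came from Tdg transcripts were not tested.

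**Figure D2:**
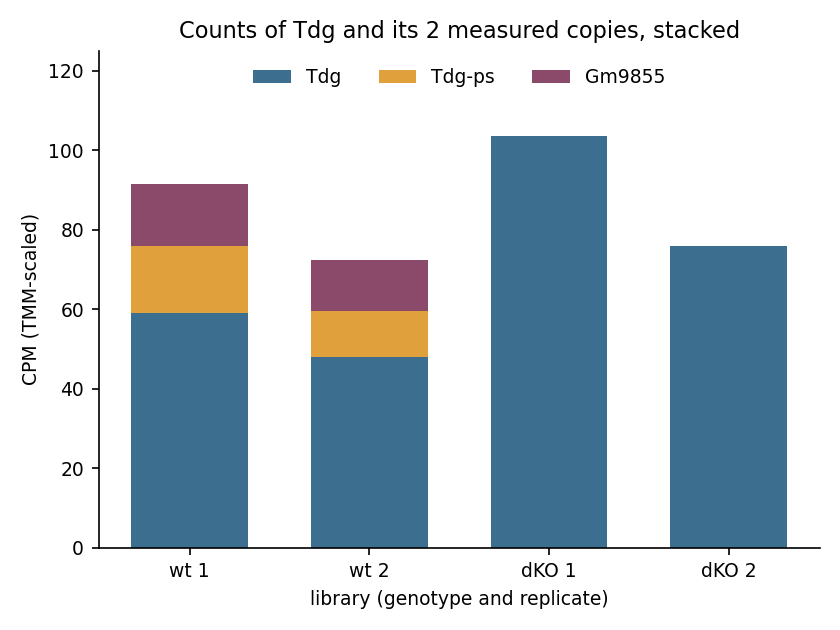
TMM-scaled CPM (vertical axis) of Tdg, Tdg-ps and Gm9855, stacked, in each of the 4 libraries. The total heights overlap between genotypes (91.4 and 72.3 in wt, 104 and 76.0 in dKO), while the segments of the copies are visible in the wt libraries only.

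Among the TET enzymes, which carry out the oxidation that precedes TDG, Tet1 had the most counts. Tet1 (ENSMUSG00000047146, chromosome 10, 62267318 to 62361866) had 596 and 859 CPM in the wt libraries, against 919 and 848 in the dKO libraries. The low value belonged to wt replicate 1, and the other wt library lay between the dKO libraries, so the genotypes overlapped. The log2 fold change was 0.28 (SE 0.20), and leaving out wt replicate 2 gave 0.57 while leaving out wt replicate 1 gave 0.03.

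Tet2 (ENSMUSG00000040943, chromosome 3, 133126643 to 133207354), which lacks the CXXC DNA-binding domain of its relatives, had 198 and 248 CPM in the wt libraries, against 280 and 289 in the dKO libraries. Both dKO libraries were above both wt libraries, by a log2 fold change of 0.35 (SE 0.15), or 1.28-fold. As with Tet1, wt replicate 1 was the lowest library. Leaving out wt replicate 1 gave 0.19, and leaving out wt replicate 2 gave 0.52.

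Tet3 (ENSMUSG00000034832, chromosome 6, 83312367 to 83391672), the TET enzyme of the oocyte and zygote, was low at 15.5 and 13.6 CPM in the wt libraries, against 12.7 and 17.2 in the dKO libraries. Both wt values lay between the dKO values. The log2 fold change was 0.04 (SE 0.23), and -0.19 without dKO replicate 2.

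Mbd4 encodes a methyl-CpG-binding glycosylase that, like TDG, removes thymine paired with guanine. It (ENSMUSG00000030322, chromosome 6, 115790715 to 115803389) had 19.2 and 22.6 CPM in the wt libraries, against 24.6 and 21.9 in the dKO libraries, with a log2 fold change of 0.15 (SE 0.18). The genotypes overlapped.

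The repair genes that act after the glycosylase differed little. Apex1 encodes the main endonuclease that cuts DNA at the site left without a base. It (ENSMUSG00000035960, chromosome 14, 51544643 to 51546814) had 76.6 and 65.8 CPM in the wt libraries, against 80.1 and 71.3 in the dKO libraries, with a log2 fold change of 0.09 (SE 0.14), -0.02 without wt replicate 2, and overlapping genotypes. It shares 1070 bases with Pip4p1 on the opposite strand, and whether counting used strand is not given, so its counts are uncertain. Pip4p1 had 104 and 75.7 CPM in the wt libraries, against 114 and 101 in the dKO libraries.

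Parp1, which encodes a polymerase that detects DNA strand breaks, had 585 and 665 CPM in the wt libraries, against 597 and 549 in the dKO libraries (ENSMUSG00000026496, chromosome 1, 182499086 to 182531384). Its log2 fold change was -0.13 (SE 0.13), and the genotypes overlapped. Xrcc1 encodes the scaffold that gathers the gap-filling and sealing enzymes. It (ENSMUSG00000051768, chromosome 7, 25332169 to 25358457) had 75.2 and 76.1 CPM in the wt libraries, against 71.2 and 70.1 in the dKO libraries. The genotypes did not overlap, since replicates lay close together, but the log2 fold change was only -0.10 (SE 0.11).

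In all, the genotypes did not overlap for 5 of the 10 genes, with Tdg and Tet2 higher and Tdg-ps, Gm9855 and Xrcc1 lower in dKO cells. Over all tested genes 33.6% did not overlap, 17.2% with dKO higher and 16.4% with dKO lower. Tdg-ps and Gm9855 were selected for their difference, so the count of 5 cannot be compared directly with that share. Apart from the 2 copies, the log2 fold changes lay between -0.13 and 0.75.

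**Figure D3:**
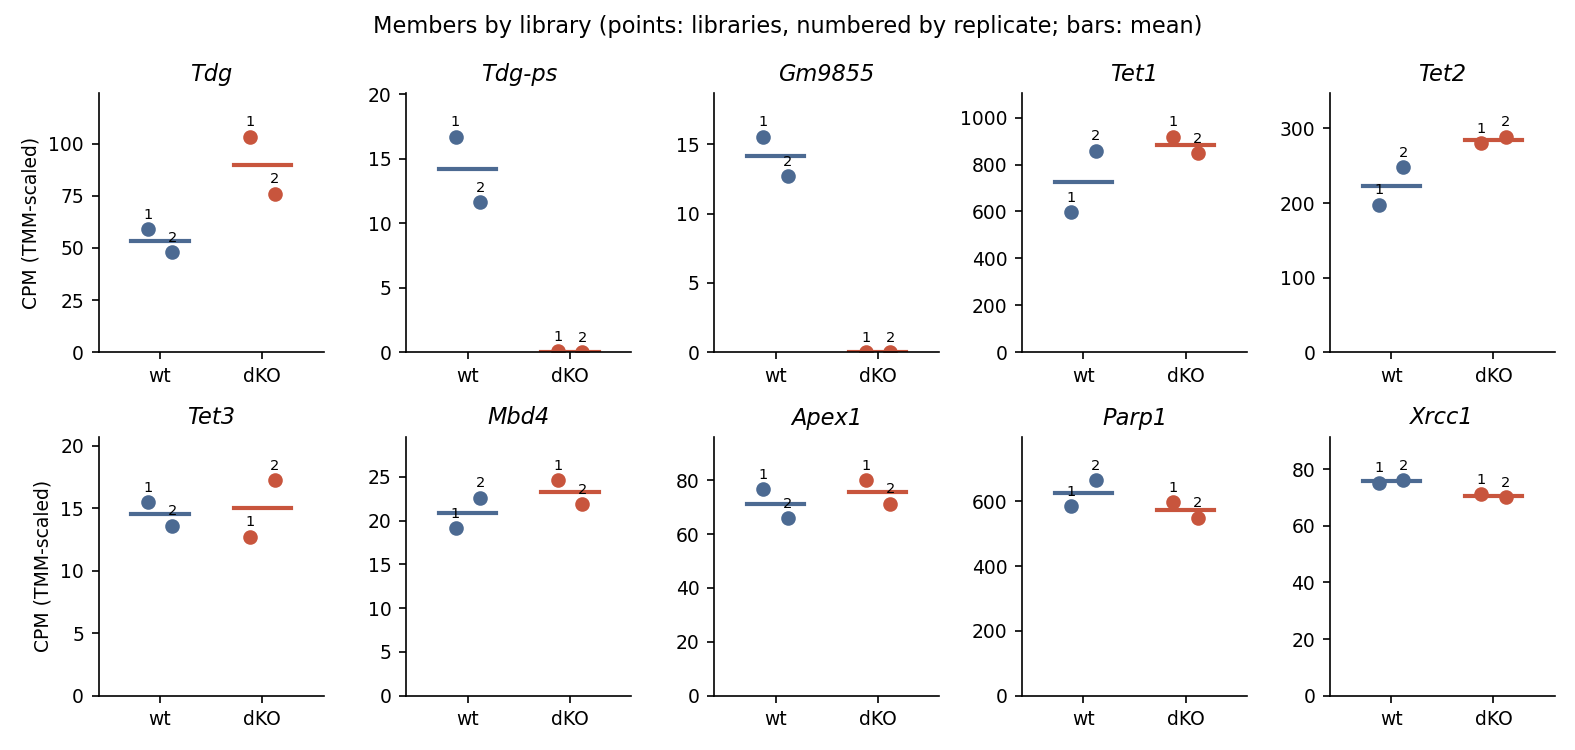
TMM-scaled CPM (vertical axes, from 0, 1 scale per gene) of the 10 genes in wt (blue) and dKO (red) libraries. Points are libraries numbered by replicate and bars are means. Tdg and Tet2 have both dKO points above both wt points, Tdg-ps and Gm9855 are near 0 in dKO, and the remaining genes overlap or, for Xrcc1, differ by a few CPM.

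Levels of different genes were compared per kilobase of annotated exon (CPM per kb, with exon lengths from GENCODE M21). In the wt libraries Parp1 was highest, at 111 and 126 CPM per kb. Apex1 (53.9 and 46.3) and Tet1 (38.6 and 55.5) followed and overlapped each other. Tet2 (11.7 and 14.7), Xrcc1 (12.9 and 13.1), Gm9855 (13.0 and 10.6) and Tdg (11.0 and 8.93) came next and neighbours in this order overlapped, while both libraries of Tet2 and of Xrcc1 lay above both of Tdg. Tdg-ps (5.64 and 3.92) and Mbd4 (3.63 and 4.28) overlapped as well, and Tet3 was lowest at 0.93 and 0.82 CPM per kb. In dKO libraries Tdg reached 19.3 and 14.1 CPM per kb and overlapped Tet2 at 16.6 and 17.1. The annotated exons of Tdg add up to 5374 bases over all its transcripts, and the order of Tdg and Gm9855 depends on this length. Divided by the longest annotated transcript of each gene (3502 bases for Tdg), an alternative chosen after seeing the data, Tdg had 16.9 and 13.7 CPM per kb in the wt libraries and lay above Gm9855, which kept 13.0 and 10.6. On that length Tet2 (21.6 and 27.0) and Xrcc1 (29.7 and 30.1) were still above Tdg in wt cells, and in dKO libraries Tdg (29.5 and 21.7) lay below Tet2 (30.5 and 31.5).

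With genotype alone in the model, none of the other genes of the pathway passed edgeR's test over all genes. Lists of 56 further genes were drawn up by function, of which 55 were tested, with 0 past an adjusted p of 0.05. With the same model, DESeq2 and limma-voom also called 0. With replicate number added to edgeR's model as a block, 5 of the 55 passed, beside 9.26% of all tested genes. The labels do not state that libraries with the same number belong together. At an unadjusted p under 0.05 edgeR with genotype alone gave 2 (3.64%, beside 5.57% of all tested genes). These were the glycosylase Nthl1 (log2 fold change -0.49) and the stress-inducible Gadd45b (-0.47), the latter named after its value was seen. For 50 of the 55 (90.9%) the 95% interval of the log2 fold change lay within 1 of 0, as it did for 65.5% of all tested genes. These shares were not matched for the level of the genes, so they cannot be compared directly.

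The 9 other DNA glycosylases, which remove damaged or misplaced bases, had a median log2 fold change of -0.12, with 3 positive and 6 negative values, beside a median of -0.002 over all tested genes. The 2 most abundant were Ung, which removes uracil and had 117 ± 16.1 CPM in wt cells, against 109 ± 18.4 in dKO cells (SD, n = 2 each), and Mutyh, which removes adenine paired with oxidised guanine and had 24.0 ± 1.87 and 20.1 ± 0.24. The lowest value was that of Nthl1, which removes oxidised pyrimidines, at 19.9 ± 3.23 CPM in wt cells, against 14.2 ± 0.35 in dKO cells. Its dKO libraries lay below its wt libraries, and its adjusted p was 0.888 by edgeR with genotype alone.

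The 17 genes that cut, fill and seal the gap had a median log2 fold change of 0.004, 9 positive and 8 negative, and none was outside -0.27 to 0.15. DNA ligase Lig1 had 431 ± 26.3 CPM in wt cells, against 420 ± 48.0 in dKO cells, and the replication clamp Pcna 288 ± 16.4 and 305 ± 18.7 (SD, n = 2 each). Pold2, a subunit of DNA polymerase delta, had the largest difference in this list, at -0.27 (95% interval -0.66 to 0.12).

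TET cofactors and partners had a median of -0.09 over 15 tested genes, with 5 positive and 10 negative values, and Cxxc4 was too low to test. Ogt, which encodes a glycosyltransferase bound by TET proteins, had 312 ± 0.96 CPM in wt cells, against 359 ± 1.08 in dKO cells, a log2 fold change of 0.20 (95% interval -0.07 to 0.48). The pluripotency factor Sall4 had 380 ± 5.93 and 376 ± 23.7 CPM. The largest difference was that of Gadd45g, at -0.89, but it was low and its interval ran from -2.39 to 0.61. Without wt replicate 2 it was -0.13, and without dKO replicate 2 it was -1.73.

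TDG partners and SUMO genes had a median of 0.07 over 9 genes, 5 positive and 4 negative. SUMO is a small protein whose attachment to TDG promotes its release from DNA. The deubiquitinase Usp7 had 691 ± 36.8 CPM in wt cells, against 724 ± 84.5 in dKO cells, and Sumo2 404 ± 56.3 and 394 ± 37.8 (SD, n = 2 each). Rxra, a retinoid receptor that binds TDG, had the largest difference at -0.62 (95% interval -1.38 to 0.14), with overlapping libraries.

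The opposing enzymes, which write and maintain DNA methylation, had a median of -0.02 over 5 genes. The maintenance methyltransferase Dnmt1 had 441 ± 32.4 CPM in wt cells, against 476 ± 11.1 in dKO cells, a log2 fold change of 0.11. The catalytically inactive cofactor Dnmt3l had 562 ± 166 and 667 ± 37.5 CPM, and the de novo methyltransferase Dnmt3b had the largest difference at -0.35 (95% interval -0.89 to 0.20).

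**Figure D4:**
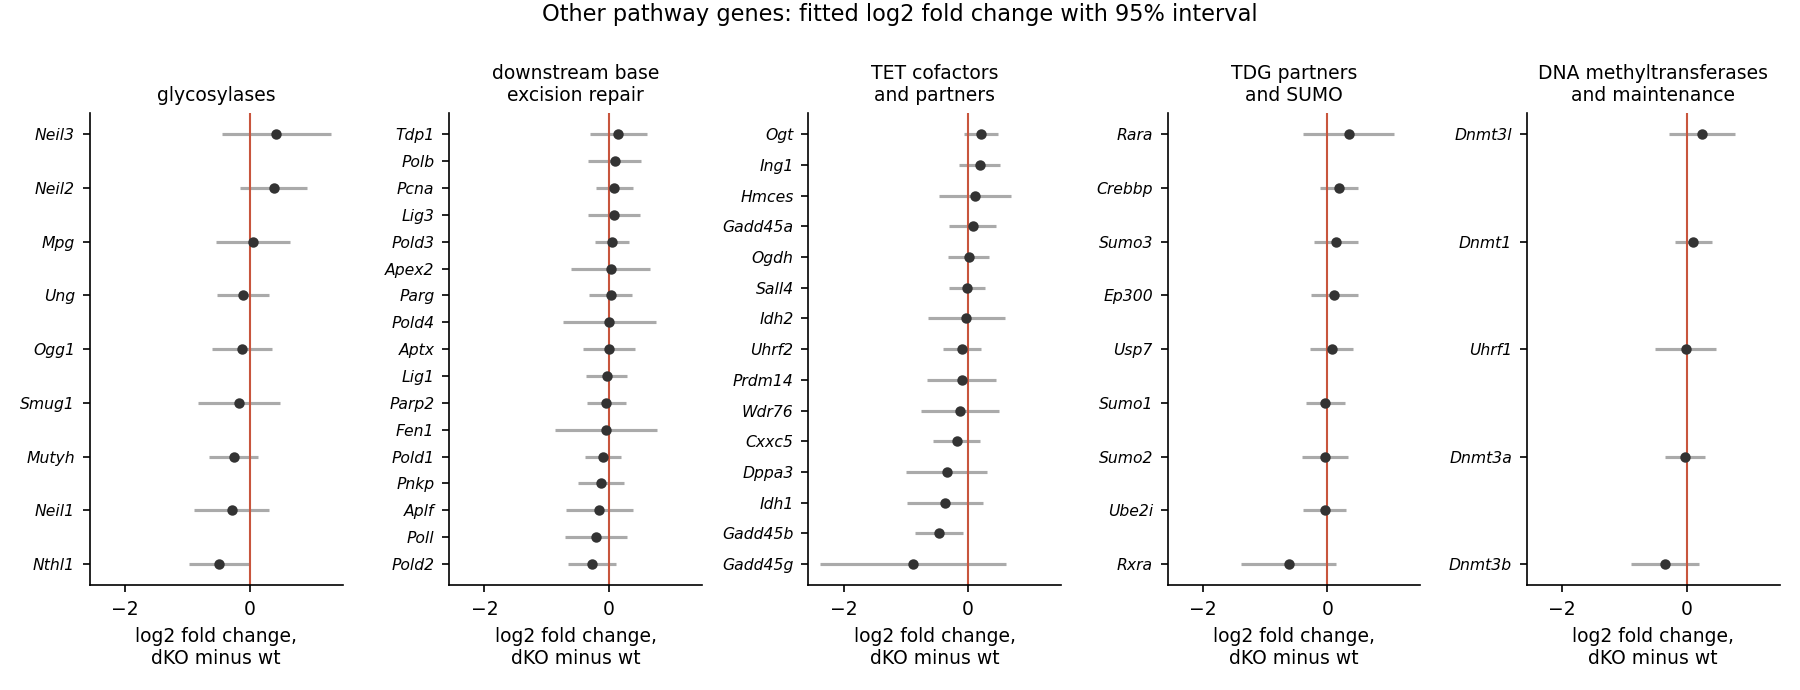
Fitted log2 fold changes (horizontal axes, dKO minus wt) of the 55 tested genes of 5 functional lists, with 95% intervals as grey bars and a red line at 0. The points lie between -0.89 (Gadd45g) and 0.43 (Neil3), and the intervals of Nthl1 and Gadd45b alone leave out 0.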

How the data were processed

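Raw read counts by Ensembl gene, for 4 TruSeq RNA libraries of Trizol-extracted total RNA, were deposited by the authors in 1 table. The submitters' processing notes name TopHat2 2.0.6, TopHat and HTSeq, without roles. The sources used here do not give the genome build, annotation, read length or strand setting. The last gene of chromosome 1 ends at 197054592 in the table but at 195323493 in GENCODE M21, so printed gene positions are those of the table. Symbols (32919 of 37991 rows), exon lengths and sequences came from GENCODE M21 by gene ID. Copies were found with blastn 2.17.0 (at least 200 aligned bases).

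After a filterByExpr filter and TMM scaling, edgeR 4.0.16 (R 4.3.3) was run with its robust quasi-likelihood test and a model holding genotype alone. Benjamini-Hochberg adjustment covered 14027 genes. SEs were derived from the F statistic. The script was tested on simulated counts. The smallest p of an exact permutation test of 2 against 2 libraries is 0.333. The genes and lists were chosen with earlier results of these data known. Named were the 10 genes and, per list, genes past the threshold, the 2 most abundant and the 1 with the largest difference. For Tdg and its copies, the 3 genes most alike were named, from log2 of CPM plus 0.5. Alternatives were DESeq2 1.42.0, its size factors, total counts, other filters, limma-voom (limma 3.58.1), a replicate block, a stricter threshold and each library left out.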

Additional observations from a re-analysis of the deposited data

How the results depend on the processing

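The count of genes changed was 12, and 80 with no low-count filter, 94 by DESeq2 on the filtered genes, 85 by DESeq2 with no filter and 6 by limma-voom. A threshold of 0.01 left 4 genes. Leaving out 1 library gave 11 to 20 (20 without wt replicate 2). With a replicate block it was 1299 (9.26% of genes). That block called 5 of the 55 pathway genes, all lower in dKO (Rxra, Gadd45b, Gadd45g, Dnmt3b and Nthl1), where each of the other settings called 0. With it Tdg had a log2 fold change of 0.74 and Tet2 0.36, for which no test is read. Libraries with the same number shared their deviations from the genotype means (r = 0.68 across genes), which the data hint at and the labels do not state. Tdg kept a positive log2 fold change in each setting run, lowest at 0.50 (dKO replicate 1 left out) and highest at 0.95 (dKO replicate 2 left out). The summed Tdg row had 0.11 to 0.14 in settings that keep all libraries and -0.11 to 0.34 with 1 left out. Uncalled log2 fold changes changed sign with 1 library left out for Apex1 (-0.0173 to 0.194), Tet3 (-0.194 to 0.243), Ung (-0.292 to 0.0516), Lig1 (-0.159 to 0.0721), Sall4 (-0.0824 to 0.049), Usp7 (-0.0595 to 0.182), Sumo2 (-0.172 to 0.104) and Dnmt3l (-0.0245 to 0.577). The causes were not tested. The depth of the dKO libraries limits the statement on the copies to the floor of 3 counts.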

Other observations

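The nearest gene on each side of either Tdg copy was read for comparison with the near loss of counts at the copies. It was taken by position among genes with at least 200 counts over the 4 libraries. Whether the copies themselves are present in the dKO genome was not tested by this. Beside Tdg-ps, Ndufa6, a subunit of respiratory complex I, had 57.9 and 56.9 CPM in the wt libraries, against 53.1 and 56.9 in the dKO libraries, and on the other side Tcf20 had 145 and 182 in the wt libraries, against 161 and 142 in the dKO libraries. Beside Gm9855, the stress-induced Sesn1 had 13.1 and 19.6 CPM in the wt libraries, against 11.9 and 20.9 in the dKO libraries. On its other side the forkhead factor Foxo3 had 115 and 106 in the wt libraries, against 121 and 145 in the dKO libraries. None of these 4 genes passed edgeR's test, and none was near 0 in a library. These neighbours lie 126487 to 289348 bases from the copies, in the positions of the table.

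The tested genes most like Tdg-ps over the 4 libraries, by the sum of squared differences of centred log2 CPM, were Gm9855 (0.05), Lmnb2 (0.42) and Gm10499 (0.83). For Gm9855 they were Tdg-ps (0.05), Lmnb2 (0.19) and Gm10499 (0.60). Gm10499 had 17.1 and 28.8 CPM in the wt libraries, against 0.43 and 0.48 in the dKO libraries. For Tdg the nearest were Ptprn2, ENSMUSG00000079709 and Lonrf3 (0.004 to 0.01), all at no more than 9.95 CPM. With 4 libraries such likeness is a description only.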
